A study of Caenorhabditis elegans with 4 samples.

Results

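The genes described here are the cuticlins and related matrix genes with a zona pellucida (ZP) domain of the nematode Caenorhabditis elegans, taken by symbol as every cut and cutl gene plus let-653, ram-5, dpy-1 and dex-1. The rule gave 39 genes, of which 6 were cuticlins (cut), 29 were cuticlin-like (cutl) and 4 were the genes named singly. All 39 had a probe on the array, and 29 of them were among the 13717 genes with values after a filter on dim probes. Transcript levels were compared between isp-1(qm150);ceh-23(ms23) animals, called the double mutant, and isp-1(qm150) animals, so both genotypes carried the qm150 allele of isp-1, the Rieske iron-sulfur protein gene of mitochondrial complex III, and the double mutant had in addition the allele ms23 of ceh-23, which encodes a homeodomain protein. Animals of both genotypes were whole mid-L4 larvae kept at 20 C on OP50 bacteria, labelled as synchronized. Each of the 4 arrays held both genotypes, one in Cy5 and the other in Cy3, and they covered 3 biological replicates, since replicate 1 was run once more with the dyes exchanged.

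The cuticle of C. elegans is an apical extracellular matrix that the epidermis renews at each molt. Collagens make up most of it, and cuticlins form its insoluble part, which is cross-linked through tyrosine residues. ZP domains let matrix proteins polymerize into fibrils and sheets, and in C. elegans they are found in cuticlins, in the longitudinal ridges called alae, and in the transient precuticle that lines tubes and covers the epidermis before a new cuticle is laid down. Transcripts of many such genes rise and fall within each larval stage, so their level in a sample depends on where its animals stand in the molting cycle. The study asked which transcripts depend on ceh-23 in animals with impaired mitochondrial electron transport.

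Over the 43803 spots that were not controls, array medians ran from 109.5 to 216 for Cy5 and from 164 to 258.5 for Cy3 in scanner units, without saturation. Both arrays of replicate 1 shared a slide, as did the arrays of replicates 2 and 3. All ratios below are log2 ratios of the double mutant over isp-1, with the arrays of replicate 1 averaged, so that n = 3. A level is a normalized log2 intensity, which can be compared between genotypes for one gene but not between genes. Tests were made with limma over all genes with Benjamini-Hochberg adjustment, and a gene was called changed at an adjusted p of 0.05. The single ceh-23 probe was well above background on 2 of 4 arrays in the double mutant and on 2 of 4 in isp-1, with a ratio of -0.09 without the filter (limma adjusted p = 0.461). Where it lies relative to the ms23 lesion was not used here, so this value checks no label.

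Of the 29 members measured, let-653 rose in the double mutant and none fell, while 28 did not pass the test. Over all genes 1.17% were called higher and 3.83% lower, 5.01% together, so 1 call among 29 members is of the size of the background. The calls sat at the edge of the threshold, since 686 of the 687 called genes had an adjusted p between 0.048 and 0.05, and those of the members with the next smallest p were 0.0549 and 0.0568. Most members nevertheless had small positive ratios. The mean ratio was above 0 in 26 members and below 0 in 3, where 48.2% of all genes were above 0, and the median was 0.17 for the members and -0.01 for all genes. At an unadjusted p of 0.05, 9 members were higher and none were lower, against 13.5% and 22.2% of all genes.

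Agreement between arrays was counted as well. In 14 members the ratio was positive on all 4 arrays and in 1, cutl-12, it was negative on all 4, against 20.9% and 25.2% of all genes. In 6 members, let-653, cutl-3, cutl-21, cutl-20, cutl-9 and cutl-16, every level in the double mutant was above every level in isp-1, a separation that 6.23% of all genes showed. No member showed it in the other direction, as 14.8% of all genes did. The filter keeps a gene that is bright in either genotype, and 5 of the 29 members, cut-5, cutl-4, cutl-9, cutl-22 and cutl-25, had no probe that was well above background in both genotypes on all 4 arrays, so these counts describe the members measured and not the 39. All 5 had a probe well above background on 4 of 4 arrays in the double mutant, but on at most 2 or 3 in isp-1. Their mean ratios were all positive, so the counts include members that could pass through the genotype where they were higher. Among these, cutl-9 is also 1 of the 6 without overlap. Without the filter, 32 of the 39 had a ratio above 0 and 7 below, with a median of 0.12, against 48.3% of genes above 0 and a median of -0.01 over 20142 genes.

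**Figure D1:**
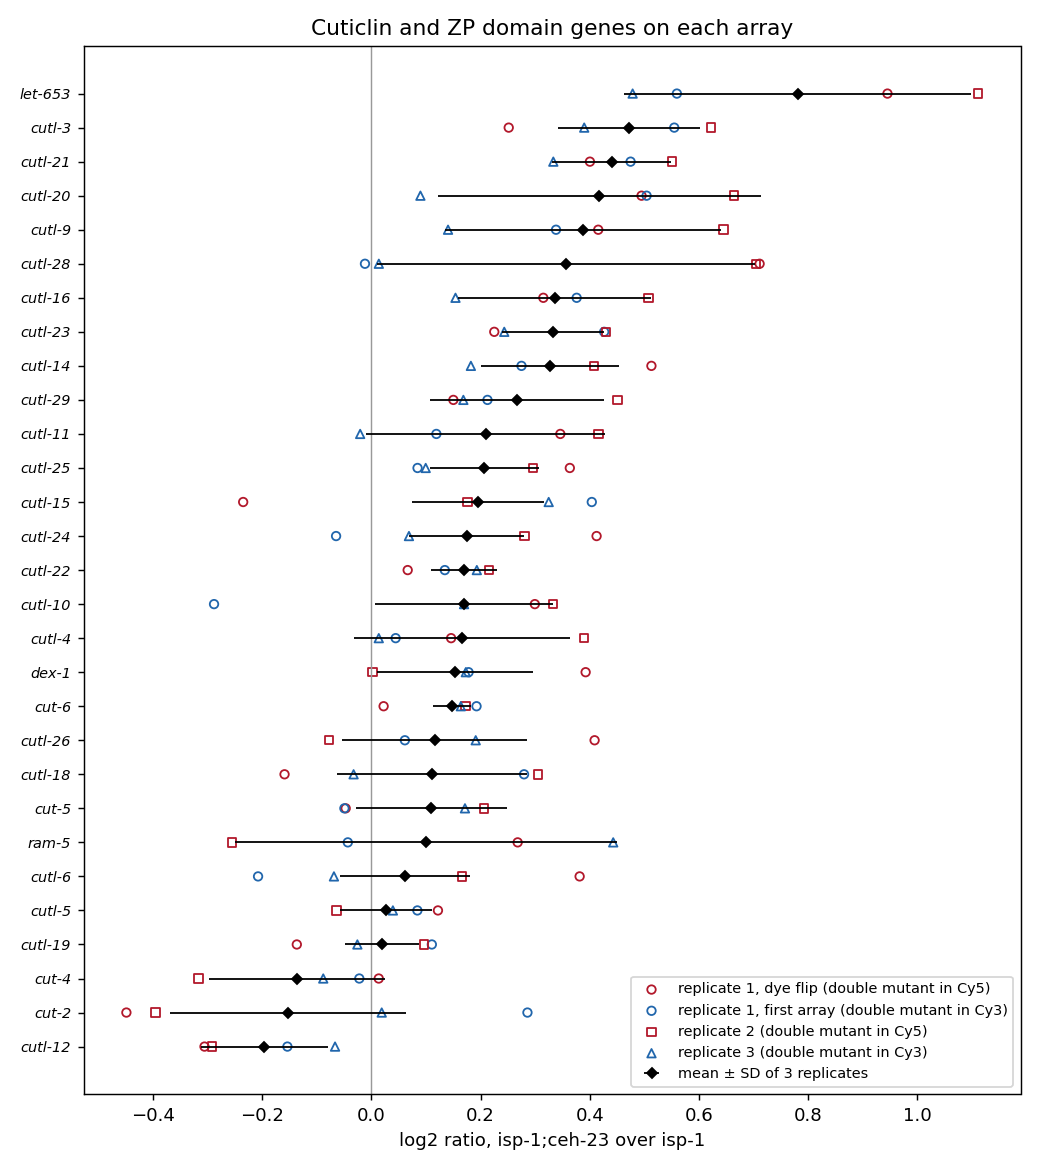
Log2 ratio of the double mutant over isp-1 (horizontal axis) for the 29 members measured (rows, ordered by mean), on each of the 4 arrays (open symbols) and as the mean ± SD of 3 replicates (diamonds). The mean is above 0 in 26 members, and let-653 lies highest at 0.78.

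The precuticle gene let-653 (C29E6.1, chromosome IV) encodes a ZP domain glycoprotein that lines the lumen of narrow epithelial tubes such as the excretory duct and the vulva and keeps them open. Its levels in the double mutant were 10.06 on the dye-flip array of replicate 1, 10.01 on the first array, 9.90 in replicate 2 and 9.66 in replicate 3, against 9.11, 9.45, 8.79 and 9.18 in isp-1 on the same arrays. The genotypes did not overlap. The array ratios were 0.95, 0.56, 1.11 and 0.48, so the difference was present in every replicate and was smallest in replicate 3. The mean ratio was 0.78 (SD 0.32, n = 3), a 1.72-fold higher level in the double mutant, with a limma adjusted p of 0.0484. With the highest mean of the 29 members measured, let-653 was largely bound to lead them. It exceeded the median of the other 28 members in each replicate, by 0.61 in replicate 1, 0.82 in replicate 2 and 0.33 in replicate 3. Its call was lost without replicate 1 (ratio 0.80, limma adjusted p = 0.0636) and without replicate 2 (0.62, limma adjusted p = 0.16), and when arrays were centred on their median and not fitted by loess (0.72, limma adjusted p = 0.457). The ratio stayed between 0.62 and 0.93 under all 21 other settings tried, and 14 of them called it. The filter on dim probes and the handling of outlier spots could be read in several ways, all of which gave the same ratio, and the reading used first was kept after the others had been compared with it. With a stricter reading, in which the same genotype had to be above background in every replicate and probes with an outlier spot still counted in the other replicates, let-653 was not called (limma adjusted p = 0.0503) and over all genes 1 was called higher and 1 lower.

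The gene next to let-653 in the WBcel235 annotation is cutl-27 (C29E6.4), with no protein-coding gene between them. Its single probe was well above background on 2 of 4 arrays in each genotype, and its ratio without the filter was 0.07 (limma adjusted p = 0.537). This dim signal gives no measure of whether the neighbour changed.

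**Figure D2:**
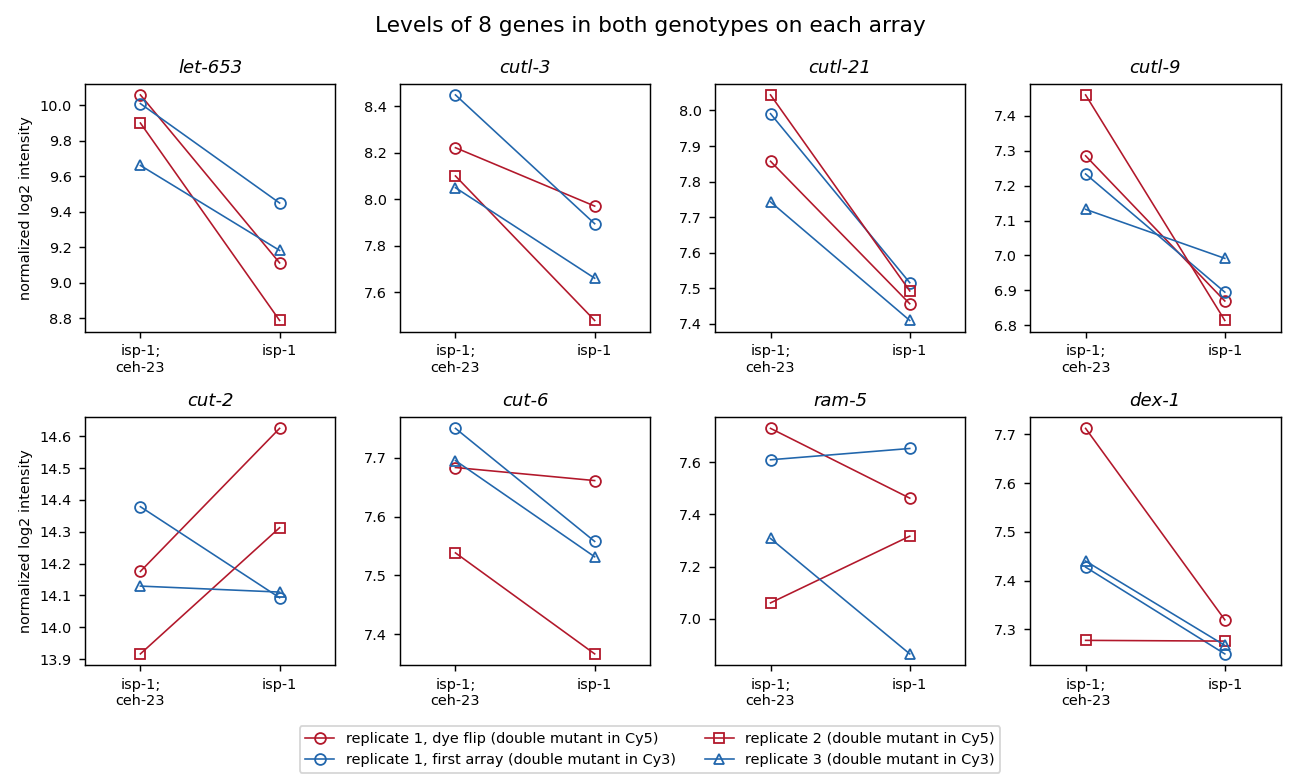
Normalized log2 intensity (vertical axes, each with its own range) of 8 genes in the double mutant (left of each panel) and in isp-1 (right), with a line for each of the 4 arrays. For let-653, cutl-3, cutl-21 and cutl-9 all 4 lines fall towards isp-1 and the genotypes do not overlap, whereas the lines of cut-2 and ram-5 cross.

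The other genes named singly did not pass the test. The gene ram-5 (T24C2.1, chromosome X), which encodes a ZP domain protein that shapes the sensory rays of the male tail, had levels of 7.73, 7.61, 7.06 and 7.31 in the double mutant and 7.46, 7.65, 7.32 and 6.86 in isp-1. Its ratio was 0.10 (SD 0.35, limma adjusted p = 0.648), and the sign differed between replicates, with 0.11, -0.26 and 0.44. The gene dex-1 (D1044.2, chromosome III), which encodes a matrix protein that anchors sensory dendrites and acts in the seam epidermis of dauer larvae, had 7.71, 7.43, 7.28 and 7.44 in the double mutant and 7.32, 7.25, 7.28 and 7.27 in isp-1. Its 3 probes gave a mean ratio of 0.15 (SD 0.14, limma adjusted p = 0.329), with almost no difference in replicate 2. Body shape gene dpy-1 (M01E10.2, chromosome III) was not well above background in isp-1 on any array and was so on 2 of 4 arrays in the double mutant. Its measured means were 6.71 in the double mutant and 6.50 in isp-1, and at this signal no fold is given.

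The 4 cuticlins of the cut group that could be measured had a median ratio of -0.01, between -0.15 and 0.15, and none passed in limma, where 0 of the 4 had an unadjusted p under 0.05 in either direction. Among the members, the brightest signal on the array was that of cut-2 (F53F1.5, chromosome V), which ranks probes and not transcripts. This gene encodes a cuticlin without a ZP domain that is part of the insoluble cuticle residue. Its levels were 14.18, 14.38, 13.92 and 14.13 in the double mutant and 14.62, 14.09, 14.31 and 14.11 in isp-1. The ratio followed the dye, with -0.45 and -0.40 on the arrays with the double mutant in Cy5 and 0.29 and 0.02 on those with it in Cy3, and its mean was -0.15 (SD 0.22, limma adjusted p = 0.38). The cuticlin gene cut-4 (E04D5.3, chromosome II) had levels of 9.57, 9.61, 9.09 and 9.55 in the double mutant and 9.56, 9.63, 9.41 and 9.64 in isp-1, with a ratio of -0.14 (SD 0.16, limma adjusted p = 0.392) that came mostly from replicate 2.

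The alae gene cut-5 (R07E3.3, chromosome X), which shapes the ridges of L1 and dauer larvae, had levels between 7.18 and 7.23 in the double mutant and up to 7.27 in isp-1, and the genotypes overlapped. Its array ratios were -0.05 and -0.05 in replicate 1, 0.21 in replicate 2 and 0.17 in replicate 3, with a mean of 0.11 (SD 0.14, limma adjusted p = 0.474). The gene cut-6 (M142.2, chromosome III), known for its part in the body shape of dauer larvae, had levels of 7.68, 7.75, 7.54 and 7.70 in the double mutant and 7.66, 7.56, 7.37 and 7.53 in isp-1. Its 4 probes gave a ratio of 0.15 with the smallest SD among the members, 0.04, and it was positive on all 4 arrays without passing (limma adjusted p = 0.301). The remaining cuticlins were too dim to measure. The dauer cuticlin gene cut-1 was well above background on 0 of 4 arrays in either genotype, and cut-3, which acts in the alae of L1 larvae, was so on 2 of 4 in each.

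The 22 measured cuticlin-like genes had a median ratio of 0.20, with 21 above 0 and 1 below, and ran from -0.20 to 0.47. None passed in limma, and 8 had an unadjusted p under 0.05, all of them higher in the double mutant. These genes are named for their similarity to cuticlins, and the role of most of them is not given here. The highest ratio was that of cutl-3 (F20D1.8, chromosome X), whose levels were 8.22, 8.45, 8.10 and 8.05 in the double mutant and 7.97, 7.89, 7.48 and 7.66 in isp-1. The genotypes did not overlap, and the ratio was 0.47 (SD 0.13, limma adjusted p = 0.0549), a difference of 1.39-fold. The gene cutl-21 (F55A4.10, chromosome X) had levels of 7.86, 7.99, 8.04 and 7.74 in the double mutant and 7.46, 7.52, 7.49 and 7.41 in isp-1. Its array ratios of 0.40, 0.47, 0.55 and 0.33 were among the most even, and the mean was 0.44 (SD 0.11, limma adjusted p = 0.0568).

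The gene cutl-20 (F54A5.2, chromosome I) had levels of 8.02, 7.99, 8.01 and 7.79 in the double mutant and 7.53, 7.48, 7.34 and 7.70 in isp-1. Its ratio of 0.42 (SD 0.30, limma adjusted p = 0.0934) was small in replicate 3, at 0.09. The gene cutl-9 (M28.1, chromosome II) had levels of 7.29, 7.23, 7.46 and 7.13 in the double mutant and 6.87, 6.90, 6.81 and 6.99 in isp-1, with a ratio of 0.39 (SD 0.25, limma adjusted p = 0.0934). It had 7 probes, of which 4 were kept, and 3 of those 4 were well above background on 2 of 4 arrays in isp-1 and on 4 of 4 in the double mutant. Near background the size of a ratio depends on how background is treated, and from the scanner's own ratios cutl-9 was the highest member, at 1.16 (limma adjusted p = 0.0449). One of its other probes, dim in both genotypes, had a negative mean ratio of -0.14.

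The gene cutl-28 (F41A4.1, chromosome IV) had levels of 8.92, 8.73, 8.76 and 8.41 in the double mutant and 8.20, 8.74, 8.05 and 8.40 in isp-1. Its ratio was 0.71 on both arrays with the double mutant in Cy5 and -0.01 and 0.01 on those with it in Cy3, with a mean of 0.36 (SD 0.35, limma adjusted p = 0.143). The gene cutl-16 (K06A1.3, chromosome II) had levels of 7.76, 7.68, 8.01 and 7.66 in the double mutant and 7.45, 7.30, 7.51 and 7.50 in isp-1, which did not overlap, and a ratio of 0.34 (SD 0.18, limma adjusted p = 0.0966). The genes cutl-23 and cutl-14 followed at 0.33 (SD 0.09) and 0.33 (SD 0.13), and both were positive on all 4 arrays with limma adjusted p of 0.0819 and 0.0894. Between them and the lower end lay cutl-29, cutl-11, cutl-25, cutl-15, cutl-24, cutl-22, cutl-10 and cutl-4, with ratios from 0.17 to 0.27 and limma adjusted p from 0.137 to 0.331. The level of cutl-4 on the array of replicate 2 was 9.21 in the double mutant and 8.83 in isp-1, against 6.97 to 7.03 and 6.82 to 7.02 on the other arrays, so that array stood apart for both genotypes alike.

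At the lower end, cutl-12 (T22C8.7, chromosome II) was the one cuticlin-like gene with a negative mean. Its levels were 6.98, 7.12, 7.27 and 7.27 in the double mutant and 7.29, 7.27, 7.57 and 7.34 in isp-1, with a ratio of -0.20 (SD 0.12, limma adjusted p = 0.215) that was negative on every array. The gene cutl-19 (ZC155.5) had a ratio of 0.02 (SD 0.07), on array values of -0.14, 0.11, 0.10 and -0.03. The gene cutl-5 (F10E7.10) had 0.03 (SD 0.08), on 0.12, 0.08, -0.06 and 0.04. These values lay within the spread between replicates. The gene cutl-6 (W01A8.3) had 0.06 (SD 0.12), on 0.38, -0.21, 0.17 and -0.07. The gene cutl-18 (F47G9.3) had 0.11 (SD 0.17), on -0.16, 0.28, 0.31 and -0.03. The gene cutl-26 (Y55F3C.7), which is separated from cutl-28 by 1 protein-coding gene, had 0.12 (SD 0.17), on 0.41, 0.06, -0.08 and 0.19. In each of these the sign differed between arrays.

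The 10 members that did not pass the filter were cut-1, cut-3, cutl-1, cutl-2, cutl-7, cutl-8, cutl-13, cutl-17, cutl-27 and dpy-1. Without the filter their ratios lay between -0.09 and 0.21, with a median of 0.01, and the smallest unadjusted p was 0.0463, for dpy-1. Both cut-1 and cutl-7 were well above background on no array in either genotype. The gene cutl-17 was above background on 1 of 4 arrays in the double mutant and on none in isp-1. The best probe of cutl-13 and that of cutl-8 were each above background on 1 of 4 arrays in the double mutant and on 2 of 4 in isp-1. For cutl-1 and cutl-2 the count was 2 of 4 in each genotype.

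The size of the ratios varied with the replicate. The member median was 0.17 in replicate 1, 0.30 in replicate 2 and 0.15 in replicate 3, against -0.02, -0.06 and 0.02 for all genes. Replicate 2 gave the highest of the 3 ratios in 21 of the 29 members and replicate 3 the lowest in 17, against 3811 and 4161 of all 13717 genes. Replicates 2 and 3 shared a slide and differed in dye orientation, with the double mutant in Cy5 in replicate 2 and in Cy3 in replicate 3. Averaged over the 2 arrays of each orientation, the member median was 0.27 with the double mutant in Cy5 and 0.15 with it in Cy3, and let-653 had 1.03 and 0.52. The ratio was higher with the double mutant in Cy5 in 17 of the 29 members, and the medians of all genes were -0.05 and 0.01. Both orientations have equal weight in the means given here. With dye as a covariate, 9 members passed higher and none lower in limma. Over all 13717 genes, 1514 were called higher and 2980 lower in that setting, together 32.8%. The 9 members were let-653 and cutl-3, cutl-9, cutl-14, cutl-16, cutl-20, cutl-21, cutl-23 and cutl-28. Without replicate 3, 11 members passed higher and none lower, where 2054 of 13717 genes were called higher and 3969 lower, together 43.9%.

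**Figure D3:**
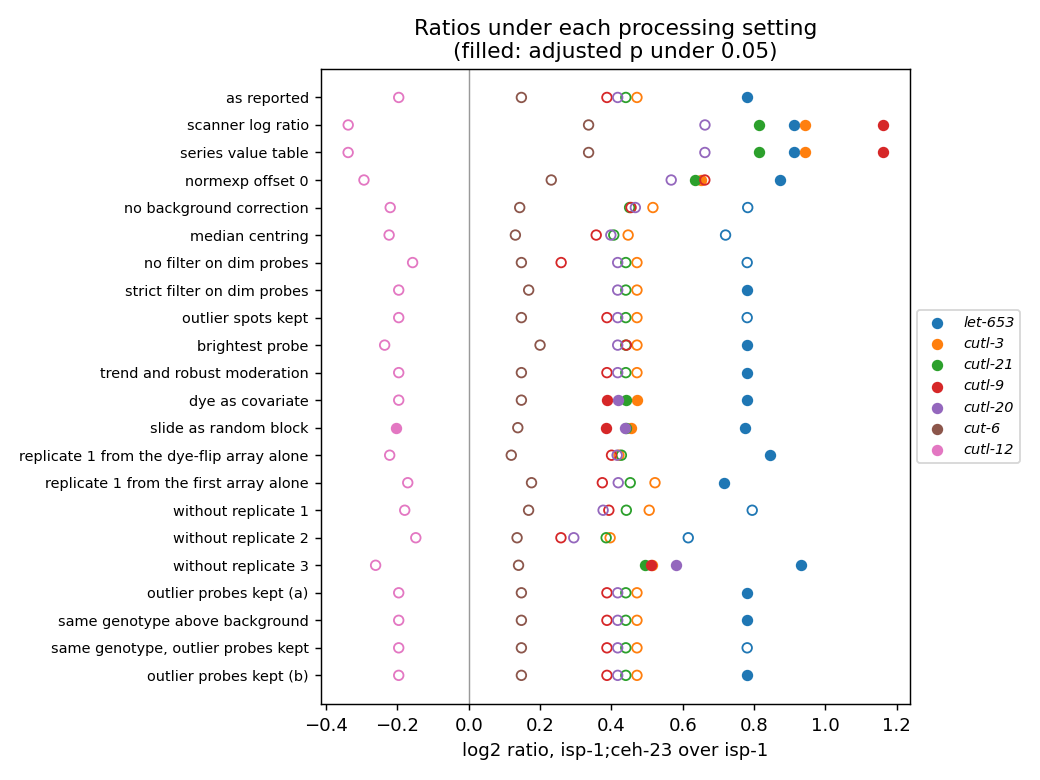
Log2 ratio of the double mutant over isp-1 (horizontal axis) of 7 members under each processing setting (rows), filled where the limma adjusted p was under 0.05. The ratio of let-653 stays between 0.62 and 0.93 while its call comes and goes, and cutl-9 moves from 0.39 as reported to 1.16 with the scanner's own ratios.

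Ratios of dim members depended on the background correction, in which an offset of 50 was added to every signal and so draws dim ratios towards 0. With an offset of 0 and no other change, the member median was 0.25, and 3 members, let-653, cutl-3 and cutl-21, passed higher and none lower in limma, where 2.94% of all genes were called higher. With the ratios that the scanner software computed, which differ also in background correction and normalization, the member median was 0.42 against 0.04 for all genes, and 7 members passed higher and none lower, where 5.18% of all genes were called higher. They were let-653 at 0.91 (limma adjusted p = 0.0461), cutl-9 at 1.16, cutl-3 at 0.94, cutl-21 at 0.81, cutl-16 at 0.72, cutl-14 at 0.63 and cutl-4 at 0.63. The bright cut-2 moved little, from -0.15 as reported to -0.16 with the scanner's ratios.

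Other genes of the apical matrix were taken by role, with earlier results of these data known. For this list and those below, 1.17% of all genes were called higher and 3.83% lower. Among 14 further ZP domain and precuticle matrix genes, all measured, 3 rose, none fell and 11 did not pass, and the median was 0.56. The genes that rose were noah-1, for a ZP domain protein of the embryonic sheath, at 0.82 (SD 0.38, limma adjusted p = 0.0491), the lipocalin gene lpr-3 at 0.67 (SD 0.17, limma adjusted p = 0.0484) and let-4, for a transmembrane protein with leucine-rich repeats, at 0.67 (SD 0.18, limma adjusted p = 0.0484). LPR-3 and LET-4, like LET-653, are parts of the precuticle that keeps narrow tubes intact. The fibrillin-like ZP gene fbn-1 had 0.85 (SD 0.48, limma adjusted p = 0.0536) and noah-2 had 0.74 (SD 0.57, limma adjusted p = 0.0755). Also near the threshold were lpr-1 at 0.75 (SD 0.42, limma adjusted p = 0.055) and sym-1 at 0.76 (SD 0.46, limma adjusted p = 0.0579). At an unadjusted p of 0.05, 8 of the 14 were higher and 1 was lower, against 13.5% and 22.2% of all genes. The dendrite-anchoring ZP gene dyf-7 had -0.16 (SD 0.16, limma adjusted p = 0.318), and egg-6, for another leucine-rich repeat protein of the precuticle, had -0.69 (SD 0.51, limma adjusted p = 0.0742). The call was lost in 8 of 21 other settings for noah-1 and let-4 and in 7 for lpr-3. Without replicate 1 the limma adjusted p was 0.0878 for noah-1, 0.153 for lpr-3 and 0.0739 for let-4, and without replicate 2 it was 0.175, 0.153 and 0.164. As with let-653, the ratios of noah-1, fbn-1 and noah-2 were highest in replicate 2 and lowest in replicate 3. Of the 14 genes, 8 were highest in replicate 2 and 8 lowest in replicate 3. By contrast, lpr-3 was highest in replicate 1 (0.86) and let-4 lowest there (0.55). For fbn-1 the dye-flip array of replicate 1 gave 1.86 and the first array 0.28.

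Of 15 genes for cross-linking and processing of the cuticle, 13 were measured, of which 1 fell, none rose and 12 did not pass, with a median of 0.08. The peroxidase gene skpo-1 fell, at -1.85 (SD 0.83, limma adjusted p = 0.0484), a call lost in 6 of 21 other settings, among them without replicate 2 (limma adjusted p = 0.153). Next in order of p came skpo-2 at 0.52 (SD 0.18, limma adjusted p = 0.0528) and mlt-11 at 0.81 (SD 0.50, limma adjusted p = 0.058). They were followed by dpy-31 at 0.31 (SD 0.04, limma adjusted p = 0.0855). At an unadjusted p of 0.05, 3 of the 13 were higher and 1 was lower, against 13.5% and 22.2% of all genes. The dual oxidase gene bli-3, whose product makes the tyrosine cross-links of the cuticle, had 0.07 (SD 0.19, limma adjusted p = 0.653), and its peroxidase partner mlt-7 had 0.19 (SD 0.17, limma adjusted p = 0.254). The proprotein convertase gene bli-4 had -0.09 (SD 0.04, limma adjusted p = 0.5). Of 13 regulators of the molting cycle and of epidermal transcription, 12 were measured, of which 1 rose, none fell and 11 did not pass, with a median of 0.17. The nuclear receptor gene nhr-25, needed for molting and for epidermal cell identity, rose, at 0.79 (SD 0.15, limma adjusted p = 0.0484), a call lost in 7 of 21 other settings, among them without replicate 1 (limma adjusted p = 0.072) and without replicate 2 (0.153). Behind it were myrf-2 at 0.47 (SD 0.14, limma adjusted p = 0.0556) and myrf-1 at 0.57 (SD 0.35, limma adjusted p = 0.0689). With lin-29 at 0.42 (SD 0.20, limma adjusted p = 0.072), 4 of the 12 were higher at an unadjusted p of 0.05 and none lower, against 13.5% and 22.2% of all genes. The gene nhr-23, a driver of the molting cycle, had -0.01 (SD 0.06, limma adjusted p = 0.932) and the period-like gene lin-42 had -0.06 (SD 0.24, limma adjusted p = 0.75).

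**Figure D4:**
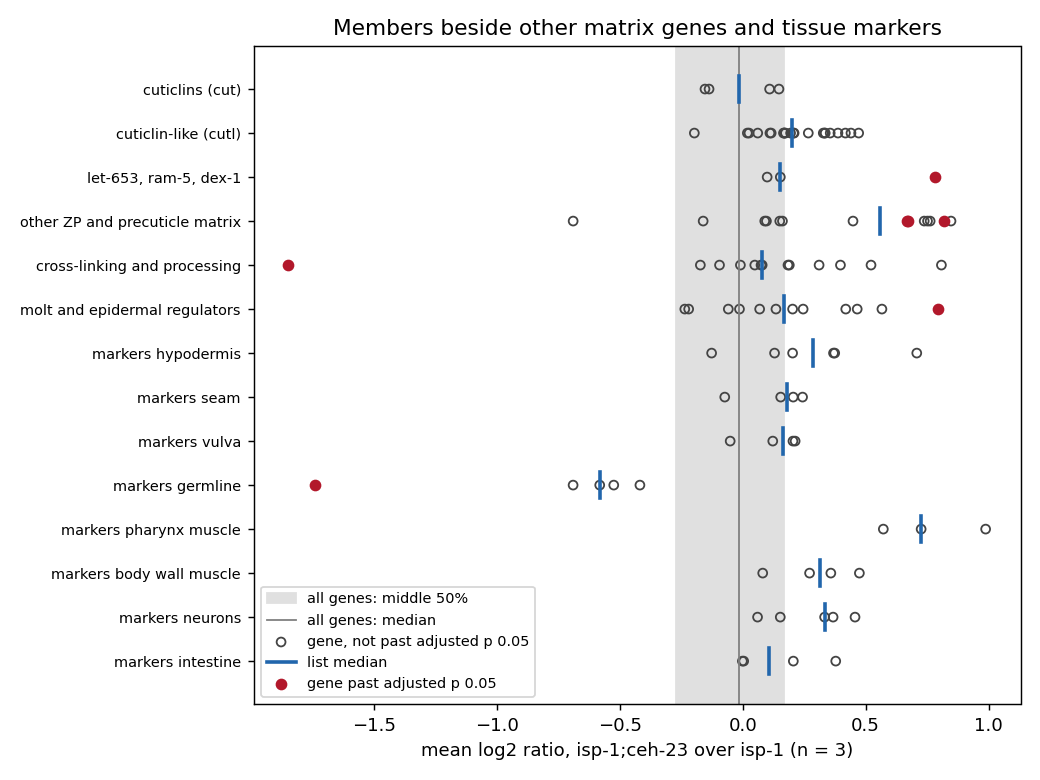
Mean log2 ratio of the double mutant over isp-1 (horizontal axis, n = 3) for each gene (points) of the member groups, of other matrix lists and of tissue marker lists (rows), with list medians as vertical bars, the all-gene median as a line and the middle 50% of all genes shaded. The cuticlin-like genes have a median of 0.20, the other matrix genes 0.56 and the germline markers -0.58.

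The samples were whole animals, so fewer cells of a type and less RNA per cell cannot be told apart. Of the 5 germline markers, rme-2, the yolk receptor gene of oocytes, fell and 4 did not pass, and the call of rme-2 was lost in 6 of 21 other settings, among them without replicate 2 (limma adjusted p = 0.153). All 5 were negative on all 4 arrays, as were 25.2% of all genes, with a median of -0.58 and values from -1.74 to -0.42. All 5 were lower at an unadjusted p of 0.05, as were 22.2% of all genes. No marker of the epidermis passed in limma. The 6 measured hypodermis markers had a median of 0.29, from -0.13 to 0.71. Of these, 3 had an unadjusted p under 0.05, all higher and none lower, against 13.5% of all genes higher and 22.2% lower. The 4 measured seam markers had a median of 0.18 and the 4 vulva markers 0.16, with none at an unadjusted p under 0.05. Markers of tissues that do not make cuticlins of the body wall were also positive, with medians of 0.73 for pharynx muscle, 0.32 for body wall muscle and 0.33 for neurons, while that of the intestine was 0.11. None of them passed in limma. At an unadjusted p of 0.05, 3 of 3 measured pharynx muscle, 2 of 4 body wall muscle, 3 of 5 neuron and 1 of 4 intestine markers were higher and none lower. In replicates 1, 2 and 3 the medians were 1.41, 0.35 and 0.44 for pharynx muscle. For body wall muscle they were 0.61, 0.27 and 0.09, and for neurons 0.15, 0.22 and 0.35. The part of tissue makeup and of the stage of the animals in the member ratios was not tested. Since each RNA extract came from animals of 1 genotype, stage and genotype cannot be told apart.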

How the data were processed

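The authors read spot signals out with Feature Extraction 10.5.1.1 from Agilent, per the file headers. The deposited scanner files give median intensity per spot and local background, Cy5 over Cy3 after Agilent's own processing as a log10 ratio, and other columns holding flags. The deposited series table gives the same log10 ratio. In R 4.3.3 with limma 3.58.1, median intensities were corrected by normexp (offset 50) and normalized within arrays by loess, controls having weight 0. Outlier spots, 8 to 496 per array, were left out, and ratios were turned by the dye in the labels. A probe was kept if each of the 3 replicates had it well above background in either genotype, and a gene was the mean of its kept probes with values in all replicates, 1 probe for 24 of the 29 members. Levels came from the same values after Aquantile scaling between arrays. The dye-flip pair was averaged and the 3 values per gene were set against 0 by lmFit and eBayes (two-sided), which in simulated ratios for the same 13717 genes called 90 of 100 genes changed by 1 on the log2 scale, 99 of 100 changed by 2, and 17 unchanged ones. The simulated ratios were drawn independently, without effects of dye, slide or replicate, and both sizes exceed every member ratio. They thus give no power or error rate for the members. Probes were named through the RefSeq table of WBcel235 (35370 of 43803 spots), and since the array design names build ce4, no coordinates are given. The members and lists were chosen with earlier results of these data known. Named were all cut genes, let-653, ram-5, dpy-1, dex-1, called members, and the 6 highest and 6 lowest cutl genes. From other lists, called genes, some of those with the smallest p and some with larger p, such as bli-3 and nhr-23, were named.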

Additional observations from a re-analysis of the deposited data

How the results depend on the processing

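Direction varied less than the calls, although several settings could not change it. The reported counts were 1 member higher and 0 lower, and 161 genes higher and 526 lower over all genes. The count of members higher, all genes higher and all genes lower was 7, 710 and 942 with the scanner's log ratio (member median 0.42), 7, 708 and 942 with the series table (0.42), 3, 403 and 1039 with an offset of 0 (0.25), 9, 1514 and 2980 with dye as a covariate, and 12, 2642 and 3958 with slide as a random block on the 4 arrays, where 1 member, cutl-12, fell. It was 0, 0 and 1 without background correction, without a filter and with outlier spots kept, and 0, 0 and 0 with median centring, where 1485 genes had an unadjusted p under 0.05. The slide setting took the dye flip as a further observation and used a correlation of -0.52 within slides. Its counts therefore do not compare directly with those from 3 replicates. Leaving out 1 replicate gave 0 to 11 members higher, 0 to 2054 genes higher and 1 to 3969 lower. Without replicate 1, which leaves the slide of replicates 2 and 3, the counts were 0, 40 and 251, without replicate 2 they were 0, 0 and 1, and without replicate 3 they were 11, 2054 and 3969. Each of these keeps 2 replicates. Of 4 readings of the filter and of outlier spots added after seeing the data, keeping probes with an outlier spot for the other replicates gave 1, 100 and 341 (let-653 adjusted p = 0.0499 in limma). Doing so and also requiring the same genotype above background in all replicates gave 0, 1 and 1, with 4901 genes at an unadjusted p under 0.05 (let-653 adjusted p = 0.0503 in limma), and the others gave counts within 1.5 times. Apart from the offset, the causes were not tested. Of the 29 members, 25 kept their sign under all 21 settings, and cutl-19, cutl-5, cutl-6 and ram-5 changed it in 1 or 2, with no call. All settings drew on the same 4 arrays. Some, such as dye as a covariate or trend and robust moderation, change the variance and leave the ratios as they were. Agreement in sign was thus partly fixed in advance and is no independent support for the direction. Each array pairs both genotypes, so the test of ratios against 0 is itself the paired analysis. Signal over background limits the 10 dim members.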
